A study of Mus musculus with 8 samples.

Results

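The hedgehog genes were followed in injured and uninjured mouse sciatic nerve, with and without c-Jun. Members were the ligands Shh, Dhh and Ihh, the receptors Ptch1 and Smo, the transcription factors Gli1, Gli2 and Gli3, and the ligand-binding protein Hhip. They were found through the gene symbols of the array annotation, which gave 9 of 18193 genes and 21 of 45101 probe sets. A signal filter, which asked for a value above the median of the array on at least 2 arrays, kept 8 of the 9 genes and 14 of the 21 probe sets. The 8 kept genes were Shh, Dhh, Ptch1, Smo, Gli1, Gli2, Gli3 and Hhip, and Ihh was the member left out.

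The series concerns c-Jun, a transcription factor of the AP-1 family, in Schwann cells after nerve injury. Adult mice had 1 sciatic nerve severed at the sciatic notch, and 7 days later a distal piece of 10 mm and the uninjured opposite nerve were taken for total RNA. There were 4 groups of 2 arrays: c-Jun KO cut, c-Jun KO uncut, CTRL cut and CTRL uncut, where CTRL mice are labelled WT for the genotype. An array measured a pool made from 4 or 6 mice, and the arrays of a group are described as independent samples. Neither the allele, the Cre driver nor the age in weeks is given in the labels. From what is known of the published study, and not from the labels, c-Jun is deleted in these mice in the Schwann lineage, so cells of other lineages keep the gene. The labels name the tissue as Schwann cells, but the RNA came from a whole nerve segment with all its cell types. Values are log2 expression values from which a common shift of all genes has been removed by normalisation, and a difference of 1 is a factor of 2.

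Hedgehog ligands are secreted, lipid-modified proteins. A ligand that binds Ptch1 relieves the block that Ptch1 places on Smo, and Smo then acts through the primary cilium on Gli2 and Gli3, whose activated forms switch on Gli1, Ptch1 and Hhip. Those target genes are therefore commonly read as a measure of pathway output, and Ptch1 and Hhip in turn hold the ligand back. In peripheral nerve, Dhh is made by Schwann cells and is known for directing the formation of the perineurium, the sheath around each nerve bundle, from neighbouring cells that carry Ptch1. Shh is known to be induced in nerve after injury.

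Dhh and Ptch1, a ligand and a target that both fell after the cut in either genotype, are shown with the 250 bases of RefSeq sequence before their annotated starts (GRCm38.p6, coding strand, 5′ to 3′). Dhh lies on the minus strand at chr15:98898541-98898790 and Ptch1 on the minus strand at chr13:63565736-63565985. Capitals mark the GC box GGGCGG on either strand.
Dhh: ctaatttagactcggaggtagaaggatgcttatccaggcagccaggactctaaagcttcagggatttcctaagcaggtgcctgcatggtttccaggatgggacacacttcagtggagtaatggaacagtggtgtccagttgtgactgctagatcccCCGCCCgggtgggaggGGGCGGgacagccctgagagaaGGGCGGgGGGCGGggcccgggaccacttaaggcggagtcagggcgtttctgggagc
Ptch1: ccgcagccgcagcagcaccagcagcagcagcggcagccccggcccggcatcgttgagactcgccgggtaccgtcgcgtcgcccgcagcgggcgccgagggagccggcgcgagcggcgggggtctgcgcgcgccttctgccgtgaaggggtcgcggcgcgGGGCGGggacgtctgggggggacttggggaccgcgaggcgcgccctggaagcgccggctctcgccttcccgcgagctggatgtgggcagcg
The window of Dhh holds 4 GC boxes at 59.6% GC, and that of Ptch1 holds 1 at 78.4% GC. Among 32851 mouse promoters of that length, 32.7% hold a GC box, and the median GC content is 52.4%. Sequences were available for 7 of the 9 members, all but Shh and Gli1. None of the 7 windows holds the letters GACCACCCA, the binding consensus of GLI factors, which 0.225% of all promoters hold, or the letters TGANTCA, that of the AP-1 factors to which c-Jun belongs, which 6.75% hold. Both strands were searched, the motifs do not overlap in these windows, and a missing match says only that the letters are not in these 250 bases.

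Array medians lay between 6.59 and 6.65, and arrays of a group correlated at 0.9835 to 0.9892 over all probe sets. Jun, the deleted gene, had log2 values of 10.39 and 10.80 in KO cut nerve, 9.62 and 9.59 in KO uncut nerve, 11.88 and 11.96 in CTRL cut nerve, and 9.58 and 9.70 in CTRL uncut nerve. It was lower in KO than in CTRL cut nerve by a log2 difference of -1.33 (SE 0.14, limma, adjusted p = 0.00866), and where its probe set lies relative to the deletion was not tested. Of 7 Schwann cell markers analysed, 3 rose and 3 fell after the cut in KO nerve, and 2 rose and 3 fell in CTRL nerve, while Sox10, a defining factor of the lineage, stayed between 10.75 and 11.30 on the 8 arrays. Markers of other cell types were present on all arrays. All 6 macrophage markers rose in both genotypes, 5 of 6 perineurial markers fell in both, and 3 of 6 fibroblast markers rose in both. Among endothelial markers 3 of 5 fell in KO and 1 of 5 in CTRL nerve, and 2 of 3 adipocyte markers fell in each genotype. Of 5 mural markers 2 fell in each genotype and 1 rose, Des, by 2.77 in KO and 2.71 in CTRL nerve. Muscle markers rose too, 5 of 5 in KO nerve and 4 of 5 in CTRL nerve. For comparison, of all 12093 genes 18.1% rose and 17.8% fell in KO nerve, and 22.8% rose and 17.5% fell in CTRL nerve. In cut nerve, where 1.09% of all genes differed between the genotypes, 1 of the 43 markers analysed did so, Mbp, a myelin protein, which was higher in KO.

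**Figure D1:**
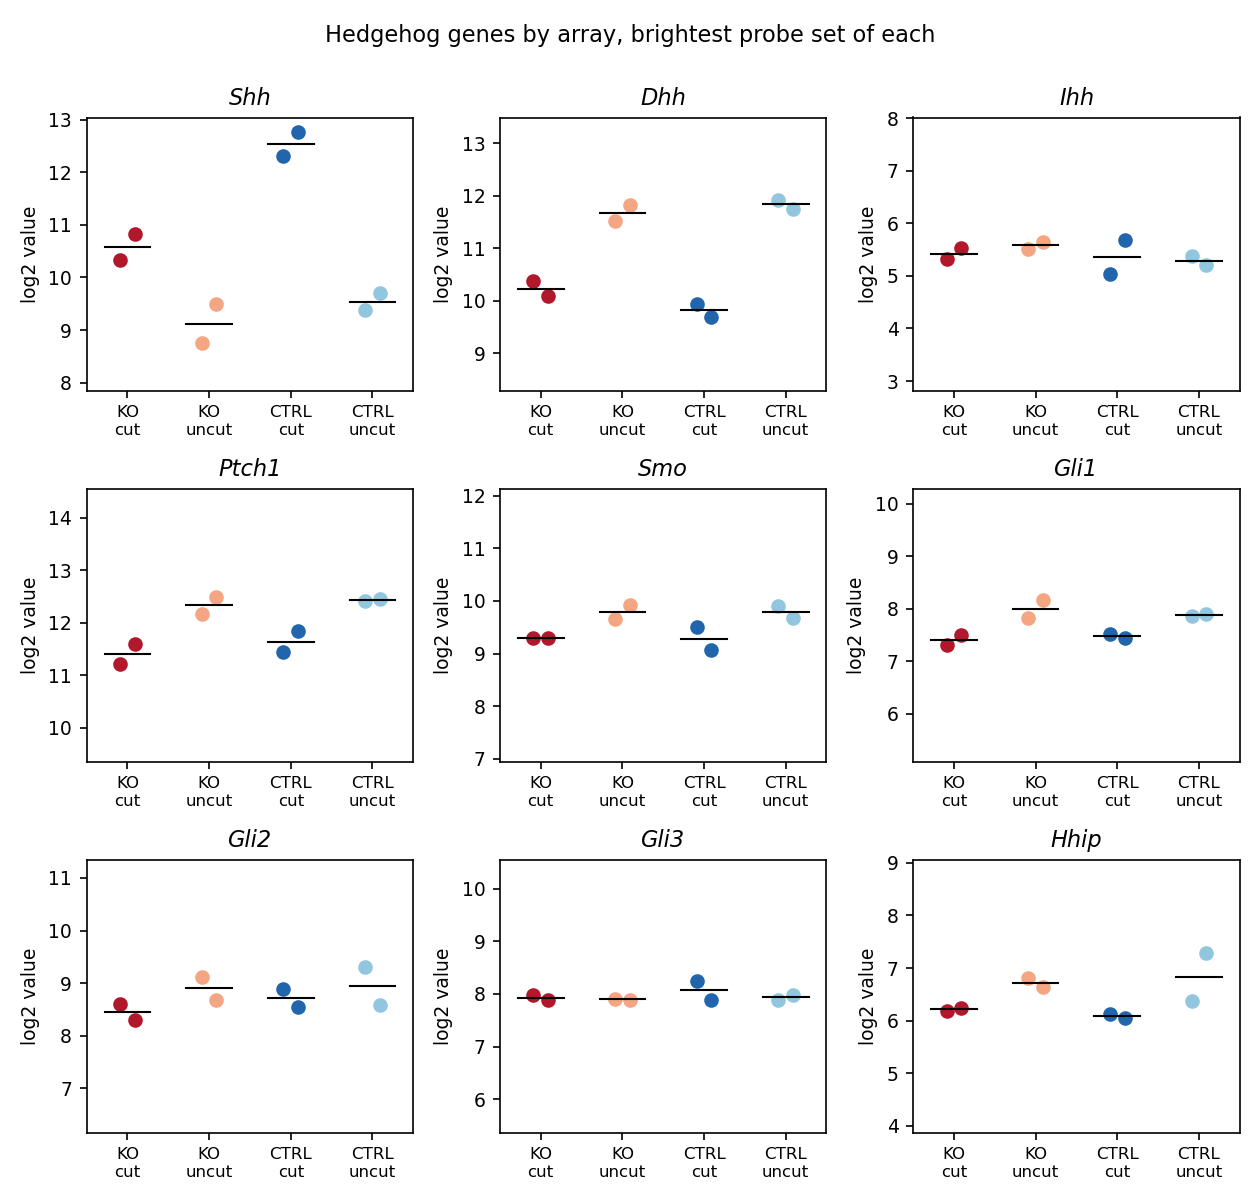
Log2 expression value of each hedgehog gene on the 8 arrays, from its brightest probe set, by group, with a bar at the group mean of 2 arrays. Each vertical axis starts at its own value and spans the same number of log2 units. Shh lies at 10.33 and 10.83 in KO cut nerve and at 12.31 and 12.76 in CTRL cut nerve, while the points of Ptch1 and Gli1 in cut nerve lie below those of uncut nerve and overlap between the genotypes.

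The first comparison asks how the hedgehog genes change after the cut, in KO and in CTRL nerve. Of the 2 ligands that passed the filter, Shh rose and Dhh fell in both genotypes, and the target genes Ptch1 and Gli1 fell in both. Of the 8 genes, 1 rose and 3 fell in KO nerve (Shh; Dhh, Ptch1 and Gli1), and 1 rose and 4 fell in CTRL nerve, with Smo added. Among all 12093 genes tested 36% were called in KO nerve, 18.1% higher and 17.8% lower, and 40.3% in CTRL nerve, 22.8% higher and 17.5% lower. Being called after injury is therefore common, and the shares of the hedgehog genes are to be read against those. Their median change was -0.50 in KO and -0.46 in CTRL nerve, while the median of all genes was 0.00 in KO and 0.05 in CTRL nerve. The hedgehog medians include Hhip, which passed the filter only through uncut arrays, where it is high. They are therefore a description, and a shift of the members as a set was not tested. Called means a Benjamini-Hochberg adjusted p under 0.05 over all genes, from limma fitted to all 8 arrays. The injury comparisons of the 2 genotypes have no arrays in common, but each shares its cut arrays with the genotype comparison of cut nerve below.

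**Figure D2:**
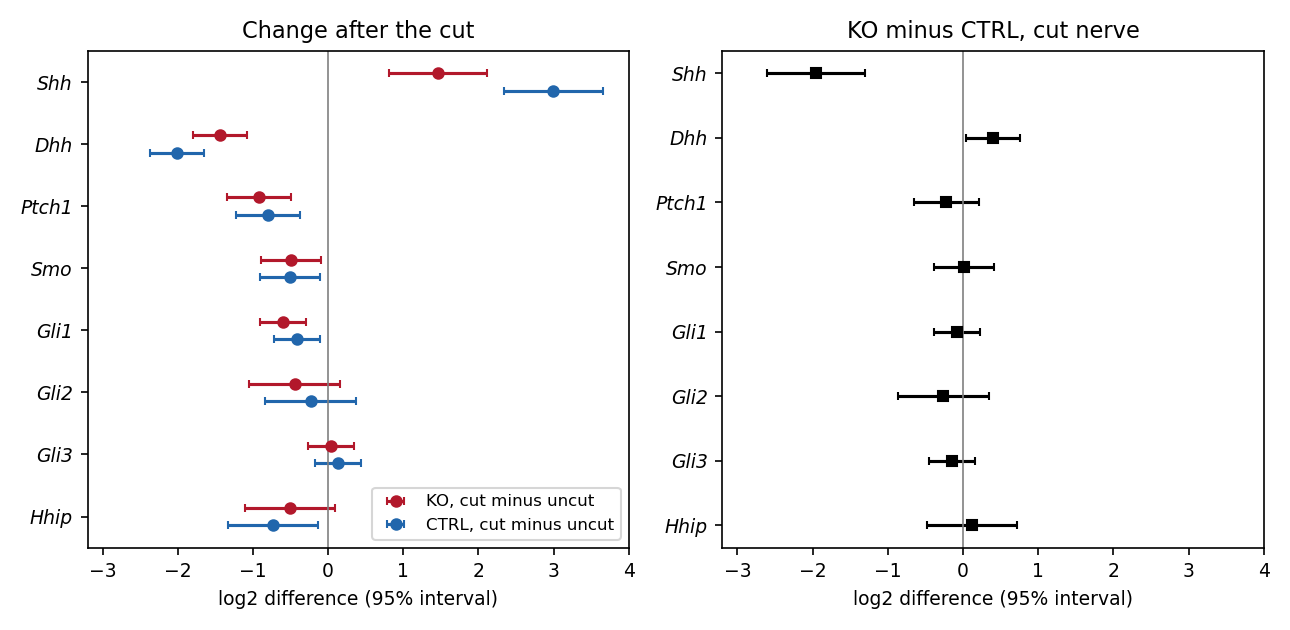
Log2 differences of the 8 hedgehog genes tested, with 95% intervals, for cut minus uncut nerve in KO (red) and CTRL (blue) on the left and for KO minus CTRL in cut nerve on the right. After the cut Shh lies at 1.46 in KO and 3.0 in CTRL nerve and Dhh at -1.44 in KO and -2.01 in CTRL nerve, and in cut nerve the interval of Shh, at -1.96, lies farther below 0 than that of any other member.

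Shh, the ligand best known for patterning the neural tube and limb of the embryo, had log2 values of 10.33 and 10.83 in KO cut nerve, 8.76 and 9.49 in KO uncut nerve, 12.31 and 12.76 in CTRL cut nerve, and 9.38 and 9.70 in CTRL uncut nerve (probe set 1436869_at). All 4 cut arrays were above all 4 uncut arrays, and both CTRL cut arrays were above both KO cut arrays. The rise after the cut was 1.46 on the log2 scale in KO nerve, or 2.75-fold (SE 0.28, 95% interval 0.81 to 2.11, limma, adjusted p = 0.00593), and 3.0 in CTRL nerve, or 7.98-fold (SE 0.28, 95% interval 2.34 to 3.65, adjusted p = 0.000173). It kept its call in every fit that left out 1 array, at 1.09 to 1.82 in KO and 2.77 to 3.22 in CTRL nerve. Among all genes it was the 451st highest rise in KO nerve and the 81st highest in CTRL nerve. Over the 8 arrays its SD of 1.44 was larger than that of 98.3% of genes.

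A second probe set of Shh, 1427571_at, was dim, above the array median on 1 of 8 arrays, and read 5.07 and 5.61 in KO cut nerve, 5.10 and 5.34 in KO uncut nerve, 5.92 and 6.85 in CTRL cut nerve, and 5.22 and 5.19 in CTRL uncut nerve. Its highest values were again those of CTRL cut nerve, while the KO cut and uncut arrays overlapped. With every probe set fitted as its own unit, it rose by 1.18 in CTRL nerve (adjusted p = 0.0197), and its difference in KO nerve was 0.12 (adjusted p = 0.836). The interval of that KO difference ran from -0.53 to 0.77. That interval includes changes in either direction, so this probe set cannot decide whether Shh rose in KO nerve. Differences of dim probe sets can be compressed, which was not tested for this one. The call of a rise in KO nerve therefore rests on the brighter probe set alone.

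Dhh, the Schwann cell ligand of intact nerve, had log2 values of 10.37 and 10.08 in KO cut nerve, 11.52 and 11.81 in KO uncut nerve, 9.95 and 9.70 in CTRL cut nerve, and 11.91 and 11.75 in CTRL uncut nerve (probe set 1434959_at). Every cut array was below every uncut array, and both KO cut arrays were above both CTRL cut arrays. Its log2 change after the cut was -1.44 in KO nerve (SE 0.16, 95% interval -1.80 to -1.08, limma, adjusted p = 0.000411) and -2.01 in CTRL nerve (SE 0.16, 95% interval -2.37 to -1.65, adjusted p = 6.81e-05), which leaves 0.369 of the uncut level in KO nerve and 0.248 in CTRL nerve. The call held in every fit that left out 1 array. Its second probe set, 1422127_at, fell by 1.45 in KO and by 1.70 in CTRL nerve, so the probe sets of Dhh gave the same directions and calls. In bulk tissue fewer cells of a type and less RNA per cell cannot be told apart, here or for any gene below.

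Ihh, the ligand known from cartilage and bone growth, was above the array median on 0 of 8 arrays and was not tested with the other members. It read 5.32 and 5.53 in KO cut nerve, 5.52 and 5.65 in KO uncut nerve, 5.04 and 5.69 in CTRL cut nerve, and 5.37 and 5.20 in CTRL uncut nerve. Every one of these values lies above the 25th percentile of its array, at 4.95 to 5.01, and below its median. Without the filter its change after the cut was -0.16 in KO and 0.08 in CTRL nerve, and neither was called.

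Taken as changes, since levels of different probe sets cannot be compared, the shift from Dhh towards Shh was 2.90 log2 units in KO nerve and 5.01 in CTRL nerve, the change of Shh minus that of Dhh. These are factors of 7.46 and 32.2 in the ratio of Shh to Dhh signal. On the single arrays, set against the uncut mean of the same genotype, it was 2.51 and 3.29 in KO cut nerve, and 4.66 and 5.36 in CTRL cut nerve. Both KO arrays lay below both CTRL arrays. These sizes rest on the brightest probe set of each ligand. The dim Shh probe set, which changed by 0.12 in KO and 1.18 in CTRL nerve, would give smaller ones. The shift carries no test, since the pair of ligands was chosen with results of these data known. In the fit itself the difference between the genotypes in the response to the cut was -1.54 for Shh (SE 0.40, adjusted p = 0.322) and 0.57 for Dhh (SE 0.22, adjusted p = 0.723). Neither interaction was called, among 0.165% of genes called.

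Ptch1, receptor and target, had log2 values of 11.22 and 11.60 in KO cut nerve, 12.17 and 12.49 in KO uncut nerve, 11.44 and 11.84 in CTRL cut nerve, and 12.41 and 12.46 in CTRL uncut nerve (probe set 1428853_at). All 4 cut arrays were below all 4 uncut arrays, and the genotypes overlapped within cut nerve. The log2 change was -0.92 in KO nerve (SE 0.19, 95% interval -1.35 to -0.49, limma, adjusted p = 0.00725) and -0.80 in CTRL nerve (SE 0.19, 95% interval -1.23 to -0.37, adjusted p = 0.0112). The KO call held without any 1 array. The CTRL call was lost without CTRL cut replicate 1 (-0.60, adjusted p = 0.0634) or CTRL uncut replicate 2 (-0.78, adjusted p = 0.0567), and over all such fits the adjusted p lay between 0.00964 and 0.0634. The other Ptch1 probe sets, 1439663_at and 1450824_at, changed by -0.20 and -0.53 in KO and by -0.44 and -0.30 in CTRL nerve, the same sign as the first, and neither passed the test on its own. With the kept probe sets averaged, Ptch1 changed by -0.55 in KO (adjusted p = 0.0262) and by -0.51 in CTRL nerve (adjusted p = 0.0299). Over all alternatives that kept the 8 arrays or the 4 compared, its adjusted p lay between 0.00112 and 0.0262 in KO and between 0.00169 and 0.0299 in CTRL nerve.

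Smo, the receptor that carries the signal into the cell, had log2 values of 9.29 and 9.30 in KO cut nerve, 9.66 and 9.92 in KO uncut nerve, 9.51 and 9.06 in CTRL cut nerve, and 9.91 and 9.67 in CTRL uncut nerve. Cut arrays were again below uncut arrays, and the changes sat on either side of the threshold, at -0.49 in KO nerve (SE 0.17, limma, adjusted p = 0.0549) and -0.51 in CTRL nerve (SE 0.17, adjusted p = 0.0464). In CTRL nerve the call was lost in 7 of the 8 fits that left out 1 array, with a highest adjusted p of 0.233 and a change of -0.28 without CTRL cut replicate 2. In KO nerve a call was gained in 2 of those 8 fits, without either CTRL cut array (adjusted p = 0.0279), and in 5 of 11 other alternatives. The lowest adjusted p of these was 0.0148, when the kept probe sets of Smo were averaged (-0.63), and the highest adjusted p in KO nerve was 0.243 without 1 array and 0.0831 otherwise. The CTRL call was also lost with no filter on signal (adjusted p = 0.0537) and with probe sets as units (adjusted p = 0.0708). The same held with arrays centred on a common median (adjusted p = 0.0599) and with only the 4 CTRL arrays (adjusted p = 0.0684). A second Smo probe set, 1427048_at, changed by -0.77 in KO nerve (adjusted p = 0.0152) and by -0.47 in CTRL nerve (adjusted p = 0.0887).

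Gli1, the transcription factor whose own transcript is the most widely used target of the pathway, had log2 values of 7.30 and 7.49 in KO cut nerve, 7.83 and 8.15 in KO uncut nerve, 7.51 and 7.43 in CTRL cut nerve, and 7.86 and 7.91 in CTRL uncut nerve. Cut arrays were below uncut arrays in both genotypes, and KO and CTRL cut arrays overlapped. It fell by 0.60 in KO nerve (SE 0.13, limma, adjusted p = 0.0103) and by 0.41 in CTRL nerve (SE 0.13, adjusted p = 0.0395). The KO call was lost without KO cut replicate 1 (adjusted p = 0.0573) or KO uncut replicate 2 (adjusted p = 0.0579), and the CTRL call without any of the 4 CTRL arrays (adjusted p 0.088 to 0.147). The changes themselves stayed between -0.76 and -0.43 in KO and between -0.45 and -0.37 in CTRL nerve. With all arrays kept and every probe set fitted as its own unit, the CTRL call was also lost (limma, adjusted p = 0.0672). The annotation gave Gli1 no further probe set to compare.

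Gli2, the main activating factor, had log2 values of 8.61 and 8.30 in KO cut nerve, 9.11 and 8.68 in KO uncut nerve, 8.88 and 8.55 in CTRL cut nerve, and 9.31 and 8.58 in CTRL uncut nerve. The CTRL groups overlapped, and its changes of -0.45 in KO nerve (adjusted p = 0.219) and -0.23 in CTRL nerve (adjusted p = 0.507) were not called. Gli3, which acts mostly as a repressor where no ligand is bound, lay between 7.88 and 8.25 on all 8 arrays, with a change of 0.03 in KO nerve (95% interval -0.27 to 0.34) and 0.14 in CTRL nerve (95% interval -0.17 to 0.44). Its SD over the arrays exceeded that of 23.9% of genes, the lowest such share among the 8 hedgehog genes tested. Without KO cut replicate 1 the change of Gli3 in KO nerve was -0.02, without CTRL cut replicate 1 that in CTRL nerve was -0.05, and without CTRL uncut replicate 1 the change of Gli2 in CTRL nerve was 0.13.

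Hhip, which binds ligand at the cell surface and is itself a target, had log2 values of 6.18 and 6.25 in KO cut nerve, 6.81 and 6.63 in KO uncut nerve, 6.13 and 6.06 in CTRL cut nerve, and 6.37 and 7.29 in CTRL uncut nerve. Cut arrays were below uncut arrays, but the signal was dim, above the array median on 2 of 8 arrays. Both of those were uncut arrays, so Hhip passed the filter through the groups where it is high, and calls on it are no support of their own. The CTRL uncut arrays also differed by more than the groups did. Its changes of -0.51 in KO nerve (adjusted p = 0.16) and -0.73 in CTRL nerve (adjusted p = 0.0533) were not called. The CTRL change passed the test without CTRL uncut replicate 1 (-1.19, adjusted p = 0.00157) and was -0.28 without CTRL uncut replicate 2, over a range of adjusted p up to 0.174. In KO nerve Hhip passed without either CTRL uncut array (adjusted p = 0.0139), over a range up to 0.39. A dimmer Hhip probe set, 1455277_at, fell by 0.73 in KO nerve (adjusted p = 0.0243) and by 0.60 in CTRL nerve (adjusted p = 0.0468), with every probe set fitted as its own unit.

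Over all 21 probe sets of the members fitted in that way, 1 rose and 6 fell in KO nerve, and 2 rose and 4 fell in CTRL nerve. Among all 45037 probe sets 17.2% were called in KO nerve, 8.49% higher and 8.74% lower, and 19.6% in CTRL nerve, 9.99% higher and 9.64% lower. The probe sets that rose were those of Shh, and those that fell were of Dhh, Ptch1, Smo, Gli1 and Hhip in KO nerve and of Dhh, Ptch1 and Hhip in CTRL nerve.

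**Figure D3:**
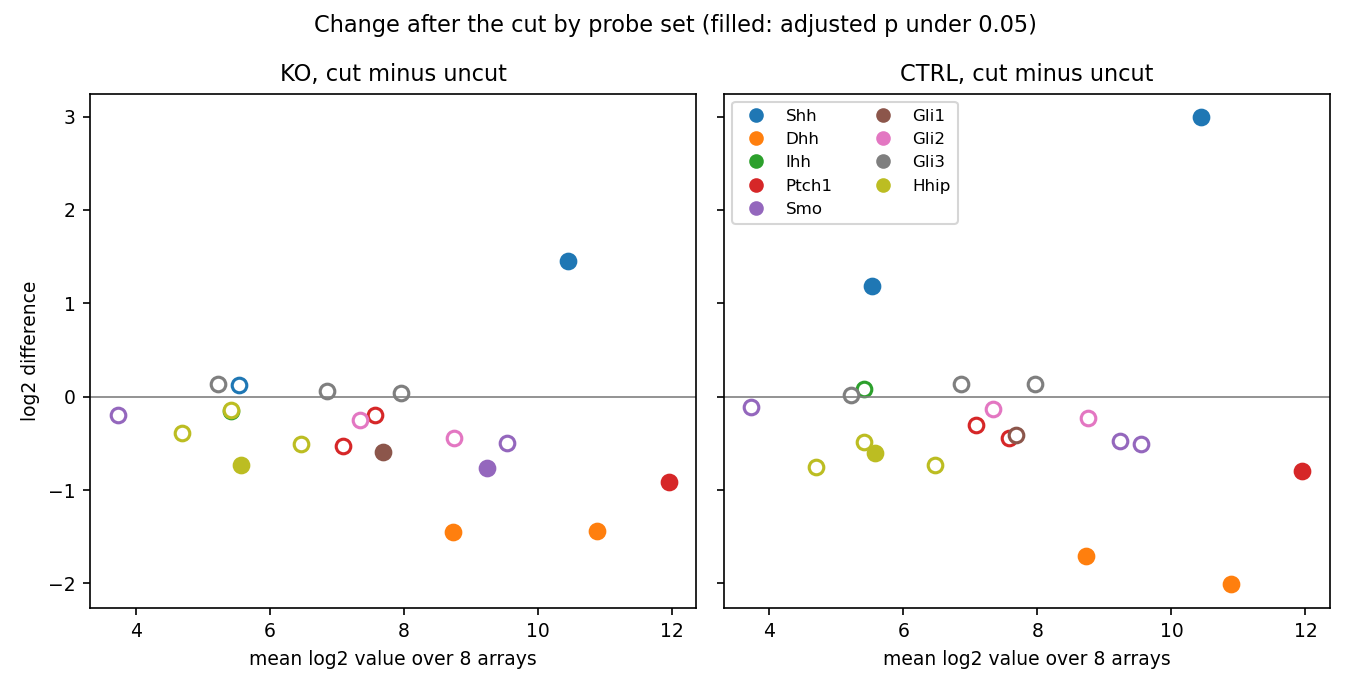
Log2 difference, cut minus uncut, of each of the 21 hedgehog probe sets against its mean log2 value over 8 arrays, in KO (left) and CTRL nerve (right), coloured by gene, filled where the adjusted p is under 0.05 among 45037 probe sets. Of the Shh probe sets the brighter rose in both panels, by 1.46 in KO and 3.0 in CTRL nerve, while the dimmer is filled in CTRL nerve alone, and both Dhh probe sets lie below -1.4 in both panels.

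The second comparison asks what c-Jun changes in cut nerve, KO minus CTRL. Of the 8 hedgehog genes, Shh was lower in KO and no other gene was called, among 1.09% of all 12093 genes called, 0.38% higher and 0.711% lower. Shh averaged 10.58 ± 0.35 in KO cut nerve and 12.54 ± 0.32 in CTRL cut nerve (SD, n = 2 each), a log2 difference of -1.96, which is 0.258 of the CTRL level (SE 0.28, 95% interval -2.61 to -1.30, limma, adjusted p = 0.0247). It was the 13th lowest difference of all genes. With the 4 cut arrays alone 31 of all 12093 genes were called, against 132 in the main fit. The difference in Shh stayed between -2.20 and -1.71 without any 1 array, but its call rests on few arrays. It was lost without KO cut replicate 1 (-1.71, adjusted p = 0.141), CTRL cut replicate 1 (-2.18, adjusted p = 0.0875), CTRL cut replicate 2 (-1.73, adjusted p = 0.138) or either CTRL uncut array (adjusted p = 0.0528), over a range from 0.0215, and with the 4 cut arrays alone (adjusted p = 0.0534). Its dim probe set differed by -1.05 (adjusted p = 0.284), in the fit of probe sets as units, where 0.482% of all probe sets were called.

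Dhh averaged 10.22 ± 0.20 in KO cut nerve and 9.82 ± 0.18 in CTRL cut nerve (SD, n = 2 each), a difference of 0.40 that was not called (95% interval 0.04 to 0.76, limma, adjusted p = 0.505). Its second probe set differed by 0.16. Ptch1 averaged 11.41 ± 0.27 in KO cut nerve and 11.64 ± 0.28 in CTRL cut nerve, a difference of -0.22 (95% interval -0.65 to 0.21, adjusted p = 0.888). Gli1 averaged 7.40 ± 0.13 in KO cut nerve and 7.47 ± 0.06 in CTRL cut nerve, a difference of -0.08 (95% interval -0.38 to 0.23, adjusted p = 0.966). Where Shh differed 3.88-fold between the genotypes, the intervals of the targets thus reach -0.65 for Ptch1 and -0.38 for Gli1 at their lower ends. For Hhip the difference was 0.12 (95% interval -0.48 to 0.72), for Gli2 -0.26 (-0.86 to 0.34) and for Gli3 -0.14 (-0.45 to 0.16). For Smo it was 0.01 (-0.38 to 0.41), with a sign that turned to -0.02 when arrays were centred on a common median and to -0.15 when its probe sets were averaged. A missed threshold in 2 against 2 arrays does not show that these genes were alike, and the difference between the effect on Shh and the effect on the targets was not tested.

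In uncut nerve 0 of the 8 hedgehog genes and 0% of the 12093 genes differed between the genotypes by limma, with 322 genes at an unadjusted p under 0.05 and 2 called with probe sets as units. Shh averaged 9.12 ± 0.51 in KO uncut nerve and 9.54 ± 0.23 in CTRL uncut nerve, with overlapping arrays, a difference of -0.42 (95% interval -1.07 to 0.24). Over the 8 genes the differences lay between -0.42 and 0.11. No hedgehog gene had a called interaction of genotype and injury either.

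The genes that make and release the ligand came from a list of 6, of which Hhat, Disp1 and Scube1 passed the filter. Hhat, the acyltransferase that attaches palmitate to hedgehog proteins, had log2 values of 6.59 and 6.67 in KO cut nerve, 6.18 and 6.18 in KO uncut nerve, 7.07 and 6.82 in CTRL cut nerve, and 6.37 and 6.20 in CTRL uncut nerve. All 4 uncut values lie below the array medians, so Hhat passed the filter through the cut arrays, where it is high, and its calls are no support of their own. It rose by 0.45 in KO nerve (limma, adjusted p = 0.0201), a call lost without any of the 4 KO arrays (adjusted p 0.0516 to 0.1), and by 0.66 in CTRL nerve (adjusted p = 0.00348), a call kept in all such fits. Disp1, the transporter that releases lipid-modified ligand, had log2 values of 8.05 and 7.76 in KO cut nerve, 8.90 and 9.39 in KO uncut nerve, 8.28 and 8.03 in CTRL cut nerve, and 9.12 and 9.06 in CTRL uncut nerve. It fell by 1.24 in KO (adjusted p = 0.0017) and by 0.94 in CTRL nerve (adjusted p = 0.00518). Scube1, a secreted protein related to those that carry the ligand away, changed by -0.25 in KO nerve (adjusted p = 0.0972) and fell by 0.43 in CTRL nerve (adjusted p = 0.0133), which was lost without CTRL cut replicate 2 (adjusted p = 0.0618) or CTRL uncut replicate 2 (adjusted p = 0.0867). None of the 3 was called between the genotypes in cut nerve, where 1.09% of all genes were called.

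Of 7 co-receptors and binding proteins 5 were tested, and in each genotype 2 fell after the cut, 0 rose and 3 were not called. The share called in either direction is near that of all genes, 36% in KO and 40.3% in CTRL nerve. By direction, 17.8% of all genes fell in KO and 17.5% in CTRL nerve. Gpc6, a glypican that promotes hedgehog signalling in bone growth, fell by 1.18 in KO (limma, adjusted p = 0.00188) and by 1.14 in CTRL nerve (adjusted p = 0.00179). Cdon, a co-receptor that binds ligand beside Ptch1, fell by 0.80 in KO (adjusted p = 0.00635) and by 0.68 in CTRL nerve (adjusted p = 0.0104). The CTRL call of Cdon was lost without CTRL cut replicate 1 (adjusted p = 0.0546) or CTRL uncut replicate 2 (adjusted p = 0.0642). The co-receptors Gas1 and Boc and the glypican Gpc3 had negative changes of -0.45 to -0.27 in KO and of -0.34 to -0.23 in CTRL nerve that were not called. The median change of the list was -0.45 in KO and -0.34 in CTRL nerve. In cut nerve its genotype differences lay between -0.26 and 0.03 with none called, among 1.09% of all genes called.

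Of 16 genes of transduction and the cilium 13 were tested, and 12 were not called in either genotype, among them Sufu, which holds Gli proteins back in the cytoplasm. That leaves 1 of 13 called, against 36% of all genes in KO and 40.3% in CTRL nerve. The exception was Evc2, which sits at the base of the cilium and passes the signal of Smo on. It had log2 values of 8.25 and 8.25 in KO cut nerve, 10.18 and 10.26 in KO uncut nerve, 8.42 and 8.20 in CTRL cut nerve, and 10.65 and 10.38 in CTRL uncut nerve. Cut and uncut arrays were thus about 2 log2 units apart, and the genotypes overlapped in cut nerve. The log2 change was -1.97 in KO nerve (limma, adjusted p = 3.49e-05) and -2.20 in CTRL nerve (adjusted p = 1.86e-05), beside -1.44 and -2.01 for Dhh. The median of the list was -0.10 in KO and -0.07 in CTRL nerve.

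Genes known as hedgehog targets in other tissues did not move in 1 direction. Of 20 listed genes 13 were tested. In KO nerve 1 rose, 4 fell and 8 were not called, with a median of -0.17, and in CTRL nerve 2 rose, 4 fell and 7 were not called, with a median of -0.21. The shares called in either direction are near those of all genes, 36% in KO and 40.3% in CTRL nerve. By direction, 18.1% of all genes rose and 17.8% fell in KO nerve. In CTRL nerve 22.8% rose and 17.5% fell. Ccnd1, the G1 cyclin, rose by 2.50 in KO (limma, adjusted p = 1.37e-05) and by 2.40 in CTRL nerve (adjusted p = 1.16e-05), and it is a target of many other pathways as well. Foxc1, a forkhead factor of mesenchyme, fell by 0.64 in KO (adjusted p = 0.00618) and by 0.60 in CTRL nerve (adjusted p = 0.00676). Ccnd2, another G1 cyclin, fell by 0.40 in KO nerve (adjusted p = 0.0257), which was lost without KO cut replicate 2 (adjusted p = 0.144), KO uncut replicate 1 (adjusted p = 0.0909) or KO uncut replicate 2 (adjusted p = 0.0893). In CTRL nerve it fell by 0.46 (adjusted p = 0.0129), which was lost without CTRL cut replicate 2 (adjusted p = 0.0757) or CTRL uncut replicate 2 (adjusted p = 0.0765). Bmp4, a secreted growth factor, fell by 0.67 in KO nerve (adjusted p = 0.0447), a call kept in 2 of the 8 fits that left out 1 array, with a highest adjusted p of 0.203. Wnt5a, a secreted Wnt ligand, fell by 0.61 in CTRL nerve (adjusted p = 0.0479), a call kept in 3 of those fits, with a highest adjusted p of 0.257.

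The pathway lists held 3, 5, 13 and 13 tested genes, and 1.09% of all 12093 genes were called between the genotypes in cut nerve. Of the lists, Bcl2, which protects cells from apoptosis, was the 1 gene called there. It had log2 values of 9.48 and 9.55 in KO cut nerve, 10.07 and 10.15 in KO uncut nerve, 10.54 and 10.53 in CTRL cut nerve, and 10.26 and 10.09 in CTRL uncut nerve. The KO cut arrays were the lowest of all 8 and the CTRL cut arrays the highest. The difference in cut nerve was -1.02 (SE 0.10, limma, adjusted p = 0.00683), lost without KO cut replicate 1 (adjusted p = 0.0549) or CTRL cut replicate 1 (adjusted p = 0.057), over a range from 0.0185. After the cut Bcl2 fell by 0.59 in KO nerve (adjusted p = 0.00324) and rose by 0.36 in CTRL nerve (adjusted p = 0.0225). The CTRL call was lost without CTRL cut replicate 1 (adjusted p = 0.0813), CTRL cut replicate 2 (adjusted p = 0.0739) or CTRL uncut replicate 2 (adjusted p = 0.133). It was also lost when the kept probe sets of Bcl2 were averaged (0.21, adjusted p = 0.219) and with only the 4 CTRL arrays (adjusted p = 0.0511).

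**Figure D4:**
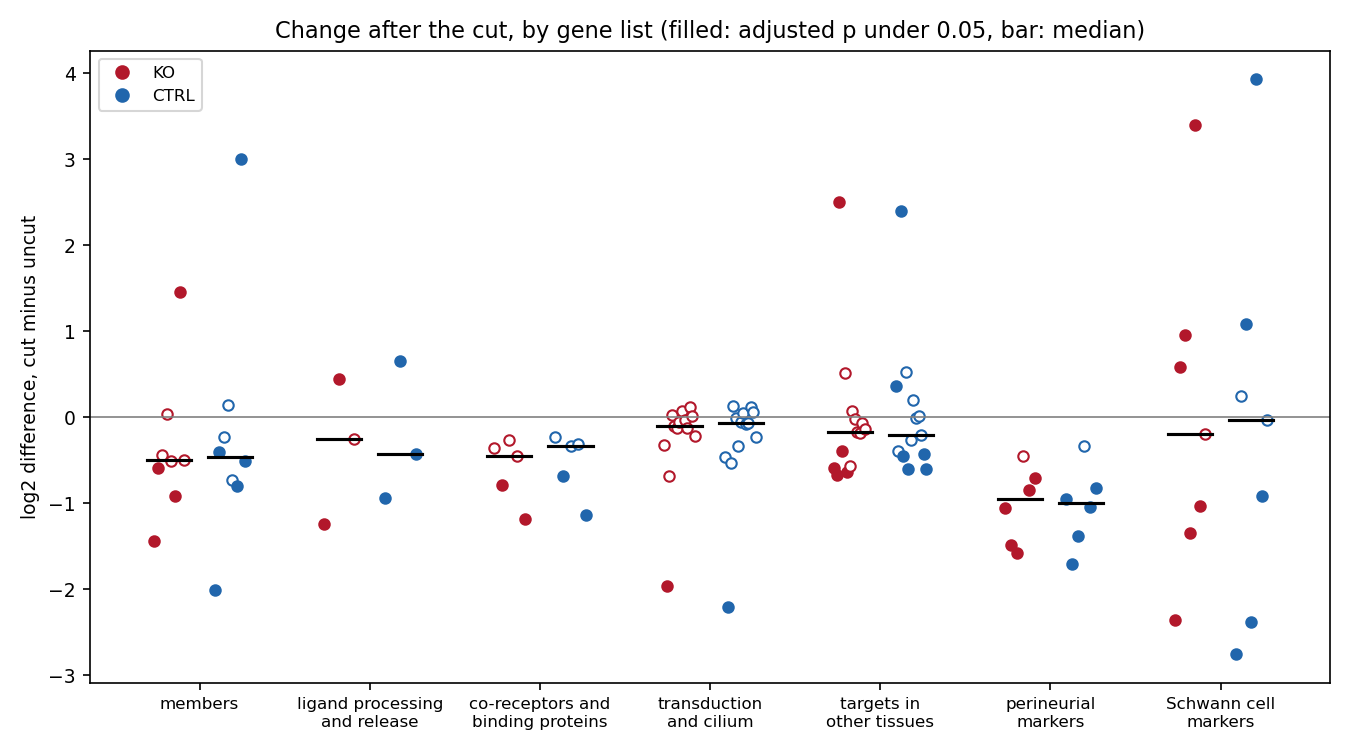
Log2 difference, cut minus uncut, of the genes tested in each list, in KO (red) and CTRL nerve (blue), filled where the adjusted p is under 0.05, with a bar at the list's median. The co-receptors lie below 0 without exception, the transduction genes lie near 0 apart from Evc2 at -1.97 in KO and -2.20 in CTRL nerve, and the perineurial markers have medians of -0.95 in KO and -1.0 in CTRL nerve.

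Perineurial markers fell after the cut, as did Dhh, Ptch1 and Gli1, while Schwann cell markers moved in both directions. Falls were not particular to perineurial markers. The median change of adipocyte markers was -1.58 in KO and -1.49 in CTRL nerve, and that of endothelial markers -0.45 and -0.30. Mural markers had medians of -0.02 and -0.17, and the medians of macrophage, muscle and fibroblast markers were positive. Of the 6 perineurial markers 5 fell after the cut in each genotype, Cldn1, Slc2a1, Tjp1, Lypd2 and Itgb4, by a median of -0.95 in KO and -1.0 in CTRL nerve over all 6. Their mean log2 value per array was 9.85 to 10.13 in KO cut nerve, 10.98 to 11.04 in KO uncut nerve, 9.95 to 10.04 in CTRL cut nerve, and 10.93 to 11.15 in CTRL uncut nerve. Among all genes 17.8% fell in KO and 17.5% in CTRL nerve. In cut nerve 1.09% of all genes were called between the genotypes. No perineurial marker was among them, nor were Ptch1 and Gli1, an absence they share with most genes. The mean of the 7 Schwann cell markers ran from 10.83 to 10.91 in KO cut nerve, 10.75 to 11.00 in KO uncut nerve, 10.89 to 10.90 in CTRL cut nerve, and 11.01 to 11.03 in CTRL uncut nerve. Within that list Egr2, the factor that drives myelination, changed by -2.36 in KO and -2.76 in CTRL nerve (limma, adjusted p = 4.59e-06 in KO and 1.9e-06 in CTRL nerve). Ngfr, the neurotrophin receptor of denervated Schwann cells, changed by 3.39 in KO and 3.93 in CTRL nerve (adjusted p = 1.52e-05 in KO and 6.64e-06 in CTRL nerve). The part of these cells in the hedgehog results was not tested.

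Over the 8 arrays, each profile centred on its own mean, the genes closest to Shh were Aldh1a3, which makes retinoic acid, Slitrk6, a neuronal membrane protein, and Rgs16, which shortens G protein signals. They differed from Shh by a root mean square of 0.325, 0.336 and 0.385 log2 units, and their changes after the cut were 1.71, 1.15 and 1.27 in KO nerve and 2.90, 2.72 and 2.86 in CTRL nerve. For Dhh the closest were Cracd at 0.0716, Ndrg1, a gene needed to keep myelin, at 0.111, and Pdzd2 at 0.113. Ptch1 lay closest to S100b, a calcium-binding Schwann cell marker, at 0.1, Aif1l at 0.102 and Pfdn2 at 0.121. Gli1 lay closest to Ppp1r3e at 0.0598, Tmbim1 at 0.0625 and Ptms at 0.069. The profiles rest on 4 groups of 2 arrays, and closeness describes these arrays alone.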

How the data were processed

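RNA of nerve segments was measured on 8 Affymetrix arrays of 1 colour. The authors deposited log2 values for 45101 probe sets. RMA (background correction, quantile normalisation and summary over probes) in the package affy is named in the submitters' processing notes, with versions not given in the sources used here. Differences of dim probe sets can be pulled towards 0 by this method. Detection calls and scan dates were not used here, so the signal filter took the place of such calls and batches were not tested.

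The platform annotation gave 34958 probe sets 1 symbol, 932 several and 9211 none, and the gene numbers of 34754 were found in a current gene table. A probe set was kept if above its array's median on at least 2 arrays (24220 kept). A gene took the brightest of its kept probe sets, which left 12093 genes. In R 4.3.3, limma 3.58.1 fitted group means over the 8 arrays (4 residual and 3.59 prior degrees of freedom, prior SD 0.124), with 5 contrasts, two-sided. Calls were made at an adjusted p under 0.05 (Benjamini-Hochberg, over all genes). The fit was tested on simulated data. P-values measure the spread between pools, and the number of arrays limits the precision. The hedgehog genes, pathway lists, markers, contrasts and alternatives were chosen with earlier results of these data known. Genes named are all members, Jun, up to 4 called genes per pathway list and contrast with the highest absolute change, and the 3 closest profiles. Markers and list genes named outside that rule were chosen after their values were seen. Some list genes were not analysed here. The alternatives and their effect are given at the end.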

Additional observations from a re-analysis of the deposited data

Results flagged for a closer look

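Bcl2, from the list of hedgehog targets known in other tissues, moved in opposite directions after the cut in the 2 genotypes: both KO cut arrays were below both KO uncut arrays, and both CTRL cut arrays were above both CTRL uncut arrays. The CTRL rise was 0.21 and not called when its kept probe sets were averaged (adjusted p = 0.219). The difference between the responses was -0.96 on the log2 scale, and it did not pass the interaction test (limma, adjusted p = 0.0666). Without 1 array its adjusted p lay between 0.108 and 0.253, and over the other alternatives between 0.0475 and 0.251. Groups of 2 arrays were too small for a search for single arrays that stand apart.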

How the results depend on the processing

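Each of the 8 arrays was left out in turn. The other alternatives were a fit with no filter on signal or with the filter at the 75th percentile, averaging a gene's kept probe sets, fitting probe sets as units, centring arrays on a common median, quantile normalising again, a trended and robust variance, weights for arrays, the replicate number as a block with or without genotype, and fitting only the 4 arrays of a comparison. Of the hedgehog genes, 4 were called for injury in KO nerve, against 3 to 5 without 1 array and 3 to 6 otherwise, and 5 for injury in CTRL nerve, against 2 to 4 without 1 array and 3 (probe sets as units) to 6 otherwise. In cut nerve 1 was called between the genotypes, against 0 with only the 4 arrays compared and 0 to 1 without 1 array. For the interaction 0 were called, against 1 with the replicate number as a block (Shh, -1.54, adjusted p = 0.0344, over a range up to 0.644). With that block Gli2 was also called in KO nerve (adjusted p = 0.0255). Deviations of arrays with the same number correlated at 0.023 to 0.34 over the 6 pairs of groups, and the labels do not say whether cut and uncut arrays with the same number come from the same mice, so the arrays were not treated as paired. The shift from Dhh towards Shh ran from 2.51 to 3.29 in KO and from 4.66 to 5.36 in CTRL nerve without 1 array. Directions turned only for changes that were not called. Smo in cut nerve was -0.15 with the mean of probe sets and -0.0217 after centring, and Bcl2 in uncut nerve 0.0017 with the mean of probe sets. Without 1 array the range crossed 0 for Gli3 in KO nerve (-0.0161 to 0.0854), Gli3 in CTRL nerve (-0.0457 to 0.318), Gli2 in CTRL nerve (-0.59 to 0.13), Smo (-0.21 to 0.24), Gli1 (-0.172 to 0.0181) and Gli3 (-0.325 to 0.0381) in cut nerve, Ptch1 (-0.264 to 0.0525) and Bcl2 (-0.15 to 0.019) in uncut nerve, and the interaction of Ptch1 (-0.318 to 0.0819). The cause of these changes was not tested. The 75th percentile filter left 5 hedgehog genes to test. Dim probe sets (Ihh, Hhip, Hhat, the second Shh probe set) lie around or below the array medians, where differences can be compressed.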
